A study of Mus musculus with 18 samples.

Results

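The share of RNA-seq fragments that came from the mitochondrial genome differed widely between liver libraries of mice on a control or a high-salt diet, and the liver libraries are described here by that share. The 6 liver libraries, of 18 libraries in the series, were ordered by the share of their fragments on the 13 protein-coding genes of the mitochondrial genome (symbols starting with mt-). The 3 with the highest share (CON14L, HS5L and CON72L, the high-share class) were set against the 3 with the lowest (CON16L, HS2L and HS4L, the low-share class), whatever the diet. The measured share chose the classes, so every difference between them in liver is a description and has no test.

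All mice were male wild-type C57BL/6 mice of 18 weeks. CON mice had chow and tap water, and HSD mice had a high-salt diet with saline to drink for 12 weeks. Livers, epididymal white adipose tissue (eWAT) and muscle were flash frozen, RNA was extracted with Trizol from whole tissue, and stranded total RNA libraries were made, 3 for each diet and tissue. CON14L, CON16L and CON72L are CON livers, and HS2L, HS4L and HS5L are HSD livers, so the high-share class held 2 CON livers and 1 HSD liver and the low-share class 1 CON liver and 2 HSD livers. In bulk tissue, fewer cells of a type and less RNA per cell cannot be told apart.

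The mitochondrial genome is a small circle present in many copies in each cell. It is transcribed inside the organelle into long precursor RNAs that are cut into ribosomal RNAs, transfer RNAs and messages for core subunits of respiratory complexes I, III and IV and of ATP synthase. All other subunits of these complexes are coded by nuclear genes, translated on cytosolic ribosomes and imported. Hepatocytes are rich in mitochondria, and the share of mitochondrial messages in total RNA is commonly read both as a trait of a tissue and as a measure of the state of the RNA or of the cells.

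Part of the mitochondrial genome also exists as nuclear pseudogenes, which bears on how its fragments are counted. The first 60 bases of mt-Co2 (mt-Co2, chrM:7013-7072 of GRCm38, plus strand), which codes for subunit 2 of cytochrome c oxidase, are shown with the same stretch of its nuclear pseudogene Gm28661 (chr1:24614885-24615565, minus strand), because a read from either would be the same.
mt-Co2: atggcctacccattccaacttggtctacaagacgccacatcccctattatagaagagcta
Gm28661: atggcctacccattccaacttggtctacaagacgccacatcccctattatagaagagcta
The 60 bases were identical at all 60 positions. Of all 50-base stretches of the mt-Co2 transcript, 100% also occurred in another annotated transcript of GENCODE M21. The share was 99.5% for mt-Atp6, 99.9% for mt-Co3, 98.0% for mt-Nd3 and 98.8% for mt-Nd4l, and their matches were pseudogenes on chromosome 1 as well. It was 62.2% for mt-Nd4 and 51.1% for mt-Co1, 8.19% for mt-Nd2 and 7.61% for mt-Nd5, and 0% for mt-Nd1, mt-Nd6, mt-Cytb and mt-Atp8.

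CON14L had the highest share, 60.82% (95% Wilson interval, 60.785 to 60.854), ahead of 44.39% in HS5L (44.357 to 44.424) and 37.845% in CON72L (37.813 to 37.876). In the low-share class, CON16L had 25.709% (25.684 to 25.734), HS2L had 16.261% (16.238 to 16.283) and HS4L had 15.385% (15.363 to 15.407). These intervals cover counting error only, and the totals behind them were 7628073 to 11627774 fragments a library. The lowest library of the high-share class and the highest of the low-share class, CON72L and CON16L, lay 12.136 percentage points apart. In the other tissues of the series the share was 3.52% to 5.11% in eWAT and 11.3% to 16.5% in muscle.

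**Figure D1:**
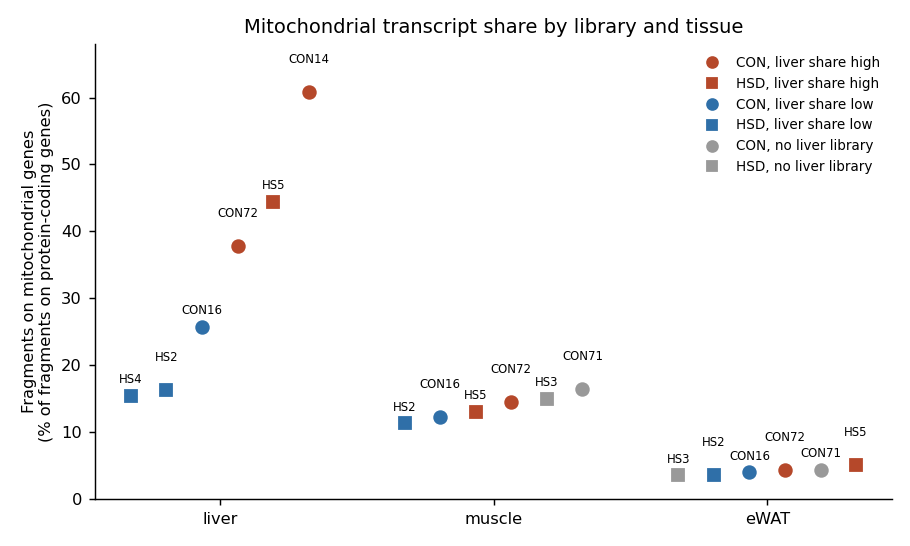
Fragments on mitochondrial genes as a percentage of fragments on protein-coding genes, 1 point for each of the 18 libraries, named by mouse, with circles for CON and squares for HSD and colour for the share class of the mouse's liver. Liver spans 15.385% to 60.82%, while every eWAT library is at or under 5.11%, and the mice of the high-share class lie above those of the low-share class in muscle and eWAT as well.

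1 library stood apart by other measures. CON16L carried transcripts of skeletal muscle. The FPKM (fragments scaled by gene length and library total) of 6 skeletal muscle markers summed to 5007 in CON16L and to 2.26 to 13.1 in the other livers, with rescaled FPKM as defined below. Acta1, skeletal actin, was at 2684 in CON16L and at 0.60 to 3.49 elsewhere. The sum of 5 red cell markers was 7573 in CON16L, 1194 to 1355 in the high-share class, and 325 and 279.7 in HS2L and HS4L. The 6 adipocyte markers summed to 43.1 in CON16L and 4.27 to 7.98 elsewhere. Values without CON16L are given beside the lists it moved most, and over all genes 41.4% were then higher in the high-share class and 14.2% lower by the measure defined below. Without CON16L the low-share class holds only HSD livers, HS2L and HS4L. Those values therefore mix share class with diet more than the values of all livers do. The muscle transcripts of CON16L include messages for respiratory subunits, which skeletal muscle makes in quantity. The part they have in its levels was not tested. The hepatocyte markers were abundant in every library. Alb, serum albumin, was at 13155, 26337 and 41922 against 46688, 41175 and 45004 rescaled FPKM, in the order CON14L, HS5L, CON72L against CON16L, HS2L, HS4L, which is used for all values below.

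The 13 mitochondrial messages moved together, as the rule required, so their values only describe the classes. The classes did not overlap for 11 of 13, all but mt-Atp8 and mt-Atp6. mt-Co1, subunit 1 of cytochrome c oxidase, had the highest FPKM, 171236, 121635 and 114078 against 69020, 38012 and 39924. mt-Cytb, the cytochrome b of complex III, had 84953, 70101 and 51619 against 40653, 28904 and 26692. mt-Nd6, the one message coded on the opposite strand, had 9774, 7636 and 6206 against 4411, 3857 and 2606. The make-up of the mitochondrial fragments shifted little beside their total. mt-Co1 took 43.5%, 42.3% and 46.6% of them against 41.5%, 36.1% and 40.1%, and mt-Cytb took 16.0%, 18.1% and 15.6% against 18.1%, 20.3% and 19.8%. 6 messages (mt-Co2, mt-Atp8, mt-Atp6, mt-Co3, mt-Nd3 and mt-Nd4l) stood at or under 5% of the FPKM of mt-Co1 in CON14L and took 0.312% to 0.459% of the mitochondrial fragments. 5 of the 6 are those with 98.0% or more of their stretches shared with nuclear copies. The handling of reads with several matches is not given in the sources used here, and its part in these low values was not tested. The share of mitochondrial fragments is therefore a share as counted by the authors, and ribosomal RNAs of the mitochondrion were not among the genes.

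The other genes were read on several scales, because FPKM divide by a total that includes the mitochondrial fragments. With a fixed total, the shares alone lower every other gene in the high-share class by a log2 difference of −0.65. For rescaled FPKM, each library was divided by the part of its fragments outside mitochondrial genes, a factor of 2.55 in CON14L, 1.798 in HS5L and 1.61 in CON72L against 1.35 in CON16L, 1.19 in HS2L and 1.18 in HS4L. Differences are those of the class means of log2(FPKM + 0.5), high minus low share, over the 10304 genes outside the mitochondrial genome whose FPKM averaged 0.5 or more over the livers.

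Large parts of the transcriptome separated with the share on either scale. A gene is called higher or lower where all 3 libraries of one class lie beyond all 3 of the other. With rescaled FPKM, 3061 genes were higher in the high-share class (29.7% of those measured) and 965 lower (9.37%), which is 39.1% in either direction, and the median difference was 0.33. As deposited, 1150 were higher (11.2%) and 3019 lower (29.3%), 40.5% in either direction, with a median of −0.21. With median-ratio scaling, which sets the typical gene to no difference, 1978 were higher (19.2%) and 2006 lower (19.5%). Of the 3019 genes lower as deposited, 965 stayed lower after rescaling, 1995 came to overlap and 59 turned higher. All 1150 genes higher as deposited stayed higher. For 839 genes the 6 libraries stood in the same order as their shares, and for 146 in the opposite order. The first principal component of the rescaled values held 54.8% of the variance, with scores of 77.1, 36.6 and 1.83 against −34.9, −32.8 and −47.8. It set CON14L farthest from the low-share libraries, and its scores did not separate the diets.

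The farthest genes at 5 FPKM or more give the extremes, chosen by this same difference. Nlrp6 (ENSMUSG00000038745, chr7:140920902-140929192), a sensor of the inflammasome family, had rescaled FPKM of 511, 403 and 200.4 against 109, 87.7 and 44.3, a mean of 371 ± 158 (SD, n = 3) against 80.3 ± 33.0 and a log2 difference of 2.19. Aspg, an asparaginase, had 577, 413 and 223 against 108, 89.1 and 42.8, and Gramd1c, a sterol transfer protein, 67.3, 33.9 and 29.9 against 15.4, 7.19 and 4.11. A further 6 were Cabyr, Adrb3, Grik5, Abcc10, Pyroxd2 and Lrit2, with differences of 2.19 to 2.43. In each of these named genes CON14L was highest and CON72L was nearest to the low-share class.

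Among the 10 genes farthest in the other direction, 5 are nuclear genes of the respiratory chain or ATP synthase. Ndufa4 (ENSMUSG00000029632, chr6:11900292-11907497), a subunit of cytochrome c oxidase, had rescaled FPKM of 19.4, 34.6 and 87.5 against 190.4, 209 and 199.6, a mean of 47.1 ± 35.8 (SD, n = 3) against 199.6 ± 9.16 and a log2 difference of −2.34. Ndufb6, a subunit of complex I, had 1.02, 13.7 and 27.2 against 46.7, 49.2 and 34.0, a difference of −2.36. Its CON14L value rests on 2 fragments, and without CON14L the difference was −1.12. Cox5a, a subunit of complex IV, had 2.23, 2.60 and 2.34 against 17.0, 9.65 and 9.59. Its high-share values rest on few fragments, 14, 26 and 28. Ndufa9, of complex I, had 4.78, 5.41 and 10.8 against 39.3, 20.0 and 24.7, and Atp5g3, of the proton ring of ATP synthase, 20.2, 26.3 and 54.0 against 125, 123 and 105. The remaining 5 were Selenop, a plasma carrier of selenium (−2.39), Cyp4a14 and Cyp3a11, cytochromes P450 for fatty acids and for drugs (−2.24 and −2.06), Pcp4l1 (−2.06) and Gm5096 (−2.85). In each respiratory gene CON14L was lowest, and CON72L was the highest of its class in all but Cox5a.

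**Figure D2:**
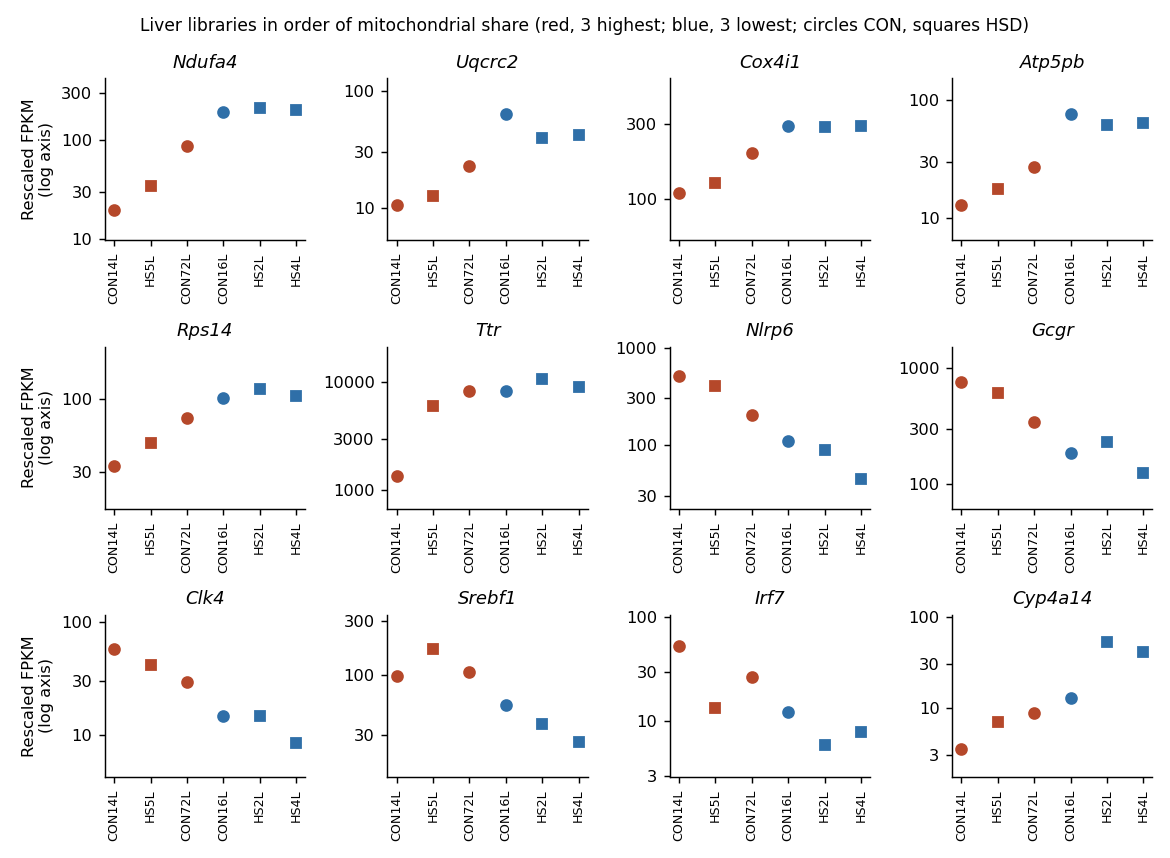
Rescaled FPKM (log axis) of 12 genes in the 6 liver libraries, ordered by mitochondrial share from CON14L to HS4L, 1 point a library, red for the high-share and blue for the low-share class, circles for CON and squares for HSD. Ndufa4 stands at 19.4 in CON14L and 199.6 in HS4L, and Nlrp6 at 511 and 44.3 in the same libraries.

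Nuclear genes of oxidative phosphorylation stood lower where mitochondrial messages stood higher. Of 36 nuclear genes of complex I, 15 were lower in the high-share class and 1, Ndufb2, was higher, where 9.37% of all genes were lower and 29.7% higher, and their median difference was −0.69 against 0.33 for all genes. Of 4 genes of complex II, 3 were lower (median −0.98). Of 9 nuclear genes of complex III, 6 were lower and 0 higher (−0.65). Of 12 of complex IV, 6 were lower and 0 higher (−1.18). Of 17 of ATP synthase, 9 were lower and 0 higher (−0.84). All members of the lists for complexes I to IV passed the filter on low values, as did 17 of the 19 of ATP synthase in the file. Without CON16L, the medians were −0.48, −0.80, −0.62, −1.0 and −0.83, and 15, 3, 6, 7 and 9 genes were lower, where 14.2% of all genes were lower and 41.4% higher. Single subunits with classes apart differed in how they were ordered within a class. Uqcrc2, a core protein of complex III, had 10.5, 12.6 and 22.9 against 63.8, 39.4 and 42.0, and Atp5pb, of the stalk of ATP synthase, 13.0, 17.6 and 26.7 against 75.5, 60.5 and 64.0. Sdha, the flavoprotein of complex II, had 16.5, 18.6 and 18.1 against 66.4, 36.4 and 36.6. Cox4i1, the largest nuclear subunit of complex IV, had 108, 125 and 196 against 290.4, 285 and 290.5. CON16L held the highest level of Uqcrc2, Atp5pb and Sdha, while Cox4i1 was nearly equal in the low-share libraries. Some subunits overlapped between classes. Ndufs8, of complex I, had 99.8, 90.4 and 147 against 144, 94.5 and 106, and Sdhb, of complex II, 62.6, 77.3 and 123 against 188, 105 and 126, where CON72L stood above HS2L.

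The balance between the genomes within one complex was read as a ratio within a library, with FPKM as deposited and 0.5 added to the nuclear genes. For complex I, the geometric mean FPKM of 5 mitochondrial messages above the 5% line stood over that of the 36 nuclear genes by 3300, 1344 and 736 times against 326, 263 and 222. The ratio of mt-Cytb to 9 nuclear genes of complex III was 3377, 1567 and 739 against 326, 263 and 259. That of mt-Co1 to 12 nuclear genes of complex IV was 8106, 3412 and 1802 against 551, 357 and 354. All 3 ratios kept the order of the shares, which the rule favours through its mitochondrial part.

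Genes of protein synthesis and turnover stood lower too. The counts for all livers here stand beside 9.37% of all genes lower and 29.7% higher. Of 80 cytosolic ribosomal protein genes, 61 were lower in the high-share class and 2 higher (Rpl24 and Rpl21), with a median difference of −0.66, and their summed rescaled FPKM was 6993, 7705 and 9192 against 11581, 12027 and 12024. Rps14, of the small subunit, had 33.0, 48.5 and 73.0 against 102, 119 and 106. Without CON16L, 63 of 79 were lower, where 14.2% of all genes were. Many of these genes have processed copies elsewhere in the genome, so single values are uncertain. Of 77 genes of the mitochondrial ribosome, 31 were lower and 4 higher (−0.38). Of 28 translation factors, 13 were lower and 2 higher (−0.39). Eef2, the elongation factor for translocation, had 158, 157 and 153 against 227, 271 and 309. Of 31 proteasome genes, 17 were lower and 1 higher (−0.50). Psmb4, of the catalytic core, had 18.0, 19.7 and 32.6 against 57.4, 52.8 and 59.5.

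Messages for secreted liver proteins and for the organelles that fold them followed. Over all genes 9.37% were lower and 29.7% higher with all livers, and 14.2% and 41.4% without CON16L. Of 30 plasma protein genes, 11 were lower and 1, Serpina1c, was higher (median −0.63), and without CON16L 20 of 30 were lower. Ttr, the carrier of thyroxine and retinol-binding protein, had 1349.7, 5995 and 8248 against 8332, 10733 and 9007, with CON14L far below the rest. Trf, transferrin, had 812, 1936 and 1641 against 2132, 3223 and 3289. The sum over the 30 genes was 69284, 107531 and 148878 against 152138, 151464 and 154592, so CON72L lay close to the low-share class. Of 16 genes of protein folding in the endoplasmic reticulum, 4 were lower and 0 higher (−0.64), and without CON16L 13 of 16. Sdf2l1, a cochaperone, had 15.7, 14.2 and 25.7 against 48.6, 54.8 and 70.4, and Manf, a secreted protein of the stress response of that organelle, 15.9, 11.3 and 27.0 against 34.9, 43.3 and 41.7. The 19 major urinary protein genes, close copies of each other whose reads cannot be told apart with certainty, overlapped between classes in all cases (−0.35).

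Other mitochondrial functions coded in the nucleus were mixed in size and mostly of the same direction. Their counts stand beside 9.37% of all genes lower and 29.7% higher, or 14.2% and 41.4% without CON16L. Of 26 genes of fatty acid oxidation and ketogenesis, 13 were lower and 2 higher (−0.68). Acaa2, the thiolase of the last step, was lower by a log2 difference of −1.32, and Hadha, of the trifunctional protein, had 15.5, 10.6 and 10.5 against 27.2, 19.4 and 16.1. Cpt1a, the entry step of long-chain fatty acids, had 32.0, 32.1 and 18.8 against 19.8, 34.4 and 34.5 and overlapped. Of 18 genes of the citric acid cycle, 8 were lower and 0 higher (−0.47), and without CON16L 8 were lower and 3 higher. Mdh2, malate dehydrogenase, had 16.7, 15.4 and 19.7 against 86.6, 38.3 and 41.7, with CON16L highest. Without CON16L the median of this list was −0.14. Of 19 genes of mitochondrial import, 8 were lower and 2 higher (−0.57). Of 12 chaperones and proteases of the organelle, 4 were lower and 1 higher (−0.33), and without CON16L 6 and 2. Of 21 genes of defence against reactive oxygen, 9 were lower and 2 higher (−0.50), and Prdx1, a peroxiredoxin, had 32.5, 52.7 and 85.3 against 126, 206 and 215.

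The nuclear genes that copy and transcribe the mitochondrial genome did not stand lower. Of 16 such genes, 8 were higher in the high-share class and 0 lower, with a median difference of 0.60, where 29.7% of all genes were higher. Polrmt, the mitochondrial RNA polymerase, had 13.1, 12.5 and 9.23 against 7.78, 7.68 and 6.37, and Twnk, the helicase of mitochondrial DNA, 12.3, 12.4 and 7.54 against 4.53, 6.05 and 6.27. Tfam, which packs mitochondrial DNA and starts its transcription, had 9.05, 10.2 and 5.55 against 6.65, 8.16 and 9.98 and overlapped. As deposited, the median of this list was 0.023, and 1 gene was higher and 1 lower, where 11.2% of all genes were higher and 29.3% lower. After median-ratio scaling the median was 0.21, and 7 genes were higher and 1 lower, where 19.2% and 19.5% of all genes were. The median was thus near 0 as deposited and its size changed with the scale. Of 22 genes that process or degrade mitochondrial RNA, 6 were higher and 3 lower (0.53), no larger a share than the 29.7% of all genes higher. As deposited 2 were higher and 5 lower (−0.022), and without CON16L 11 were higher and 4 lower. Elac2, which cuts transfer RNAs from their precursors, had 8.75, 9.67 and 6.87 against 3.76, 3.20 and 4.03. Of 10 regulators of mitochondrial biogenesis, 2 were higher and 0 lower (0.55), while as deposited 1 was higher and 2 lower (−0.018). Ppargc1a, the coactivator PGC-1α, had 3.65, 3.41 and 0.854 against 2.0, 0.956 and 1.09 and overlapped.

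**Figure D3:**
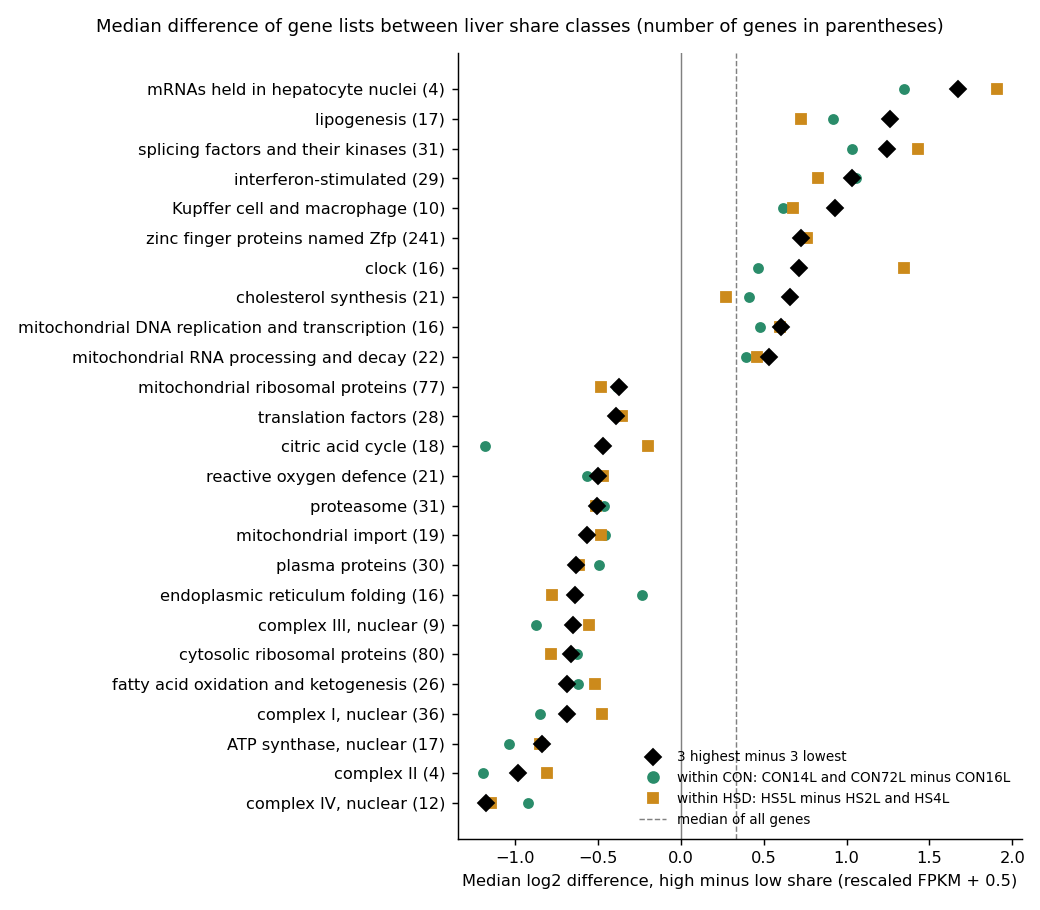
Median log2 difference (rescaled FPKM + 0.5) of 25 gene lists between share classes of liver, with the number of genes of each list, for all 6 libraries (diamonds), within CON (circles) and within HSD (squares). Respiratory complexes and ribosomal proteins lie left of 0 in both diets, and splicing factors and Zfp genes lie right of the dashed line, the median of all genes at 0.33.

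Liver messages listed as kept in hepatocyte nuclei had a positive median difference. The mRNAs of Mlxipl, Nlrp6 and Gcgr are among those known in mouse liver for a large nuclear fraction. Of a list of 4 such mRNAs, 3 were higher in the high-share class, none was lower and 1 overlapped, on either scale. Of all genes 29.7% were higher rescaled and 11.2% as deposited. The median difference of the list was 1.67 rescaled and 1.02 as deposited. The list was added after the values were seen, so these counts only describe its genes. Mlxipl, the glucose-sensing factor ChREBP, had 430.2, 331 and 249 against 136, 131 and 53.7, a difference of 1.73. Gcgr, the glucagon receptor, had 754, 608 and 341 against 187, 231 and 124, a difference of 1.62. Nlrp6 is among the extremes above and was known to be so when this list was added. Tug1, a long RNA mostly found in nuclei and the only such RNA of the list in the file, had rescaled FPKM of 24.9, 6.70 and 6.78 against 5.84, 4.76 and 4.62. As deposited its FPKM were 9.74, 3.73 and 4.21 against 4.34, 3.98 and 3.91, which overlapped, with HS5L lowest and CON14L alone far above the rest.

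Splicing factors and their kinases stood higher. Of 31 genes of this list, added after the values were seen, 28 were higher and none lower with rescaled FPKM (median 1.24), where 29.7% of all genes were higher. As deposited 17 were higher and none lower (0.60), where 11.2% of all genes were higher, and after median-ratio scaling 25 and none (0.82), where 19.2% were. Clk4, a kinase of SR proteins, had 57.7, 42.0 and 29.8 against 14.9, 15.0 and 8.62, and Clk1, its relative, 62.4, 51.7 and 34.5 against 18.9, 19.3 and 11.9. Son, a scaffold of nuclear speckles, had 50.6, 32.1 and 19.8 against 13.2, 11.5 and 7.90, and Rbm39, a coactivator and splicing factor, 80.4, 54.8 and 36.3 against 24.3, 20.5 and 16.2. Srsf5, an SR protein, had 113, 107 and 93.0 against 71.5, 79.2 and 38.7. CON14L was highest and HS4L lowest in all 5. Of 241 zinc finger genes named Zfp, 125 were higher and 2 lower (0.73) with rescaled FPKM. On that scale 29.7% of all genes were higher and 9.37% lower. As deposited 58 were higher and 22 lower (0.17), where 11.2% of all genes were higher and 29.3% lower. After median-ratio scaling 91 were higher and 14 lower (0.33), where 19.2% of all genes were higher and 19.5% lower. Zfp692 had 67.0, 40.8 and 19.8 against 12.6, 10.3 and 5.05.

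Genes of many exons stood higher than genes of few. Genes were cut into quintiles by the exons of their transcript with most exons in GENCODE M21. The median rescaled difference was 0.046 in the quintile of 1 to 5 exons, 0.093, 0.25 and 0.49 in the next, and 0.68 in the quintile of 17 or more, and the percentage of genes higher in the high-share class was 15.7, 19.7, 26.4, 37.5 and 49.2. By exonic length the medians went from −0.080 to 0.54, and by GC content from 0.23 to 0.52. By mean FPKM they were 0.39 in the lowest quintile and −0.11 in the highest. Exon number and level are linked, so exon number was read within quintiles of level. The quintile of fewest exons had a median of 0.20 and that of most exons 0.53 among genes of lowest level, and −0.29 and 0.53 among genes of highest level. The difference by exon number was present in each quintile of level. Across 10298 annotated genes, which share the same libraries and are not independent, Spearman's rho of the difference was 0.32 with exon number, 0.28 with exonic length, 0.13 with the span of the gene, 0.13 with GC content and −0.18 with mean FPKM.

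**Figure D4:**
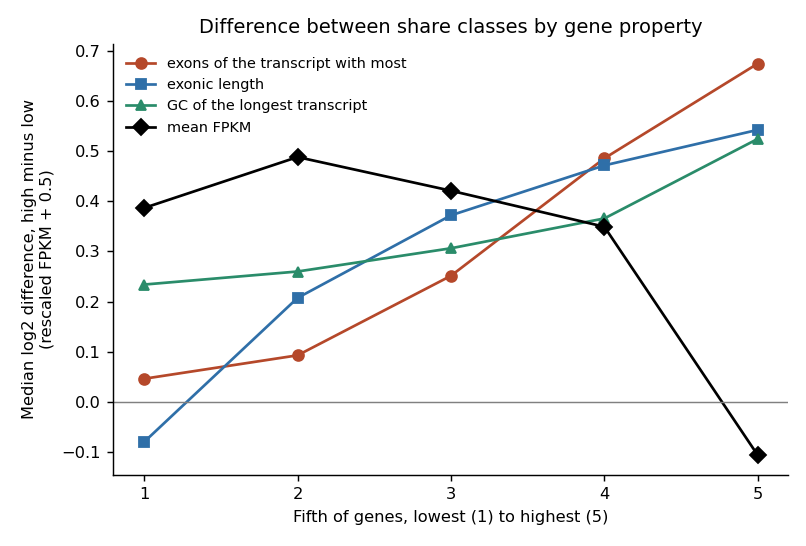
Median log2 difference (rescaled FPKM + 0.5), high minus low share, of genes cut into quintiles by exon number, exonic length, GC content and mean FPKM. The line of exon number climbs from 0.046 to 0.68, and that of mean FPKM drops to −0.11 in the highest quintile.

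Lipid genes of the liver were split, and their counts were near those of all genes or moved with CON16L. Of 17 lipogenic genes, 5 were higher and 1, Fads1, was lower, with a median of 1.26, where 29.7% of all genes were higher. As deposited 2 were higher and 2 lower (0.62), and without CON16L 11 were higher and 1 lower. Fasn, fatty acid synthase, had 90.3, 51.5 and 97.9 against 48.1, 10.2 and 12.6, and Srebf1, the factor SREBP-1 that drives these genes, 99.3, 169 and 107 against 54.5, 37.9 and 25.9. Acacb, the acetyl-CoA carboxylase at mitochondria, had 16.3, 1.51 and 8.20 against 8.74, 0.381 and 0.461 and overlapped, as both CON72L and CON16L stood far above HS5L. Thrsp, a lipogenic cofactor, had 298, 105 and 243 against 123, 9.74 and 11.3 and overlapped, since HS5L stood below CON16L. Of 21 cholesterol genes, 7 were higher and 1 lower (0.66), beside the same 29.7%. As deposited 2 were higher and 3 lower (0.066), and without CON16L 16 were higher and 2 lower. Of 6 Cyp4a genes, 2 were lower. Cyp4a14 had 3.47, 7.04 and 8.79 against 12.7, 52.6 and 41.5 and Cyp4a10 13.8, 47.8 and 52.4 against 60.7, 175 and 142, both omega-hydroxylases of fatty acids and close relatives, with HS2L and HS4L above all others. Of 10 gluconeogenic genes, 4 were higher and 0 lower (0.47), while as deposited 1 was higher with a median of −0.18, and after median-ratio scaling the median was 0.042. The median of lipogenic genes was 0.92 within CON and 0.73 within HSD, and that of Cyp4a genes −0.24 and −1.09.

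Interferon-stimulated genes stood higher, and markers of Kupffer cells, the macrophages of the liver, had a positive median. Of 29 interferon-stimulated genes, 16 were higher and 0 lower (median 1.03), where 29.7% of all genes were higher. As deposited 8 were higher and 3 lower (0.50), and without CON16L 22 of 28 were higher. Irf7, a factor of the interferon response, had 52.5, 13.5 and 26.9 against 12.2, 5.89 and 7.93, and Oas1a, which makes the activator of RNase L, 6.04, 1.67 and 2.99 against 0.983, 0.79 and 0.242. HS5L stood nearest to the low-share class in both. Of 10 Kupffer cell and macrophage markers, 4 were higher and 0 lower (0.93), beside the same 29.7% of all genes higher. As deposited 1 marker was higher (0.35), where 11.2% of all genes were, and without CON16L 7 markers were higher. Their summed rescaled FPKM was 193, 64.2 and 108 against 81.8, 31.8 and 45.4. Clec4f had 73.0, 16.8 and 29.0 against 18.1, 6.63 and 10.2 and Cd5l 24.0, 10.4 and 16.0 against 7.73, 3.55 and 2.96. Of 12 sinusoidal endothelial markers, 2 were higher and 1 lower (0.045), and of 11 stellate and fibroblast markers none was higher or lower (0.17). Without CON16L, 4 of 11 endothelial markers (0.51) and 4 of 11 stellate markers (0.22) were higher and none lower. In that setting 41.4% of all genes were higher and 14.2% lower (median 0.40), so neither count of higher markers exceeded that share. Of 5 cholangiocyte markers 2, and of 4 lymphocyte markers 1, were higher. Neither of 2 neutrophil markers separated. Of 20 hepatocyte markers, 2 were higher and 5 lower (−0.50), and without CON16L 11 were lower. None of 5 red cell markers separated the classes, and without CON16L all 5 were higher (2.07). The part of cell composition in the other lists was not tested.

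The differences were also described within each diet. Within CON, CON14L and CON72L were set against CON16L, and within HSD, HS5L against HS2L and HS4L. These splits share no library, though both belong to the contrast that made the classes, so their likeness is no test. Each split has 1 library on one side. Within CON that library is CON16L, with its skeletal muscle and red cell transcripts. Of 1265 genes without overlap and higher by at least 1 on the log2 scale within CON, 1214 (96.0%) were higher without overlap within HSD, where 62.1% of all genes were. Of 687 genes lower in the same way within CON, 304 (44.3%) were lower within HSD, against 25.9% of all genes. The median difference of these 687 within HSD was −0.054, against 0.37 for all genes. Of 2213 genes higher within HSD, 1747 (78.9%) were higher within CON, against 46.6%. Of 381 genes lower within HSD, 285 (74.8%) were lower within CON, against 23.7%. Across the 10304 genes, Pearson's r between both splits was 0.45. Complex I genes had a median of −0.85 within CON and −0.48 within HSD, ribosomal protein genes −0.62 and −0.78, and splicing factors 1.03 and 1.43. Some lists went apart. Immediate early genes, which respond within minutes to stimuli and handling, had −0.23 within CON and 1.42 within HSD, and none of 15 separated the classes. Egr1 had 6.94, 72.7 and 8.16 against 12.2, 40.4 and 3.02, high in HS5L and HS2L. Of 16 clock genes, 5 were higher and 0 lower, near the 29.7% of all genes higher, with medians of 0.47 within CON and 1.35 within HSD. As deposited 1 was higher and 1 lower, and without CON16L 6 were higher and 2 lower.

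The share class and the diet were then fitted together, since the labels give the diet. With limma on log2 rescaled FPKM of all 6 livers and the class as a term, 0 of 10304 genes were DEGs (0%) for HSD over CON, where a DEG needed a log2 fold change beyond 1 in either direction and an adjusted p under 0.05. At an unadjusted p under 0.05 there were 659 genes (6.4%). The genes nearest to the threshold were Serpina7, a thyroxine-binding globulin, at a log2 fold change of 3.83 ± 0.43 (standard error), Nat8f5 at −3.31 ± 0.40 and Acacb at −2.96 ± 0.37, each with a limma adjusted p of 0.0618. For 2 of the genes farthest apart between classes, the log2 fold change of the diet by limma was −0.077 (standard error 0.50, adjusted p = 1.00) for Ndufa4 and −0.24 (0.46, adjusted p = 1.00) for Nlrp6. Without HS5L, 263 genes were called, all down, and there the diet difference within the low-share class rests on CON16L as its only CON library. Leaving out any other library gave 1 to 6 calls. A limma fit of all 6 livers without the class term also called 0 of 10304 genes. It had 409 genes (3.97%) at an unadjusted p under 0.05 and a smallest limma adjusted p of 0.216.

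In 4 of the livers, CON14L, CON72L, HS2L and HS4L, which are those in the study's quality summary, diet and share class coincided and cannot be told apart. A limma fit of HSD over CON on these 4, with FPKM as deposited, called 37 of 9958 genes (0.372%), 22 up (0.221%) and 15 down (0.151%), and 3157 genes (31.7%) had an unadjusted p under 0.05. The count without CON72L was 3140, without CON14L 1008 and without HS2L 178. CON16L and HS5L, which this fit did not use, have diet and class the other way round, so HS5L minus CON16L is an HSD minus CON difference that goes from low to high share.

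The genes of the 4 libraries mostly went the other way in the remaining pair. Of 2402 genes up at an unadjusted p under 0.05, 2035 (84.7%) had the opposite sign in HS5L minus CON16L, and of 755 down, 558 (73.9%). Of all 9958 genes, 69.4% had the opposite sign, and Pearson's r across genes, which share the same libraries, was −0.44. With rescaled FPKM, 84.4% of 2435 genes at an unadjusted p under 0.05 and 72.7% of all genes had the opposite sign. Muscle transcripts of CON16L touch this pair, so genes higher in the muscle libraries than in the other 5 livers were also left out. Then 1089 of 1429 genes (76.2%) had the opposite sign as deposited and 1281 of 1478 (86.7%) after rescaling. Of all 4445 genes kept this way, 67.2% had the opposite sign as deposited and 75.6% after rescaling.

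As deposited, the DEGs themselves were divided. Of 22 upregulated DEGs, 16 (72.7%) had the opposite sign in HS5L minus CON16L and 6 the same. This was near the 69.5% of all genes up that were opposite. Of 15 downregulated DEGs, 6 (40%) had the opposite sign and 8 the same, and for 1, Gm17662, the pair did not differ. Of all genes down, 69.3% were opposite. With genes higher in the muscle libraries left out as above, 4 of 8 upregulated DEGs had the opposite sign and 4 the same, and of 13 downregulated 6 and 6. After rescaling, 101 of 134 DEGs (75.4%) had the opposite sign, beside 72.7% of all genes. With the same genes left out, 90 of 116 rescaled DEGs (77.6%) did, beside 75.6% of all genes kept. As deposited, Cox5a had a log2 fold change of 2.39 in the 4 libraries (limma adjusted p = 0.0184) and −2.76 in the pair. Cyp4a14 had 3.58 (limma adjusted p = 0.0344) and −1.17, and Mrpl46, of the mitochondrial ribosome, 2.15 and −2.49. Serpina7 had 5.57 (limma adjusted p = 0.0174) and 2.31, and Acacb had −2.86 (limma adjusted p = 0.00775) and −2.39, the same sign in both. Thrsp had −3.84 (limma adjusted p = 0.0120) and −0.64. The pair has 1 library a diet and no replicate check, so these are differences between libraries.

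**Figure D5:**
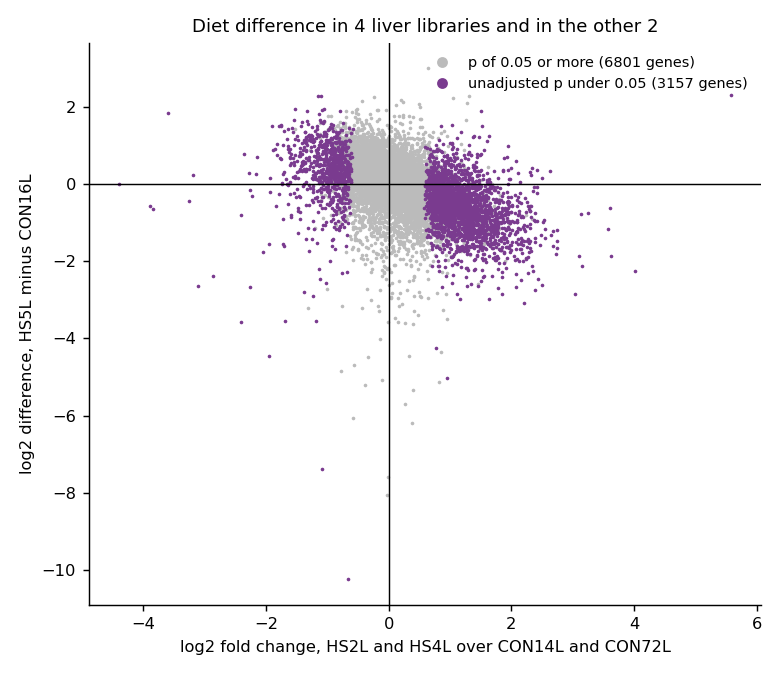
Each point is 1 of 9958 genes, with the log2 fold change of HS2L and HS4L over CON14L and CON72L on the horizontal axis and the log2 difference of HS5L minus CON16L on the vertical axis, purple at an unadjusted limma p under 0.05. Most purple points lie in the upper left and lower right, 82.1% of 3157 genes, and the lowest points include Acta1 and Mylpf, genes of skeletal muscle.

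Other tissues of the same mice gave libraries that the rule did not use. 4 mice had eWAT and muscle libraries as well, CON72 and HS5 of the high-share class and CON16 and HS2 of the low-share class. The mitochondrial share in eWAT was 4.33% in CON72 and 5.11% in HS5 against 3.99% in CON16 and 3.57% in HS2, and in muscle 14.5% and 13.0% against 12.3% and 11.3%. The classes did not overlap in either tissue, and an exact two-sided permutation test gave p = 0.333 for each, the smallest that 2 against 2 allows. In eWAT the 4 mice stood in the same order as in liver. The spread was narrow, 0.943 percentage points between class means in eWAT and 1.96 in muscle. In these mice class and replicate number coincide and cannot be told apart.

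Gene expression in these tissues did not pass the test between classes. In eWAT, limma called 0 of 13254 genes (0%), with 332 (2.5%) at an unadjusted p under 0.05 and a smallest adjusted p of 1.00. In muscle it called 0 of 10763 (0%), with 973 (9.04%) at an unadjusted p under 0.05 and a smallest adjusted p of 0.342. With diet as a second term, muscle had 13 calls, 4 up and 9 down, and without CON72M 3, all down. Of the lists lower in liver, 5 were read in these tissues, and in muscle their medians were positive. Complex I genes had a median log2 difference of 0.41, with 23 of 35 at an unadjusted p under 0.05, complex IV genes 0.49, with 11 of 12, ATP synthase genes 0.35, with 9 of 17, proteasome genes 0.20, with 4 of 31, and cytosolic ribosomal protein genes 0.38, with 52 of 78. The median of all muscle genes was 0.015. In eWAT the medians in that order were 0.094, 0.12, 0.11, 0.058 and −0.054, with 0 genes of these lists at an unadjusted p under 0.05. Splicing factors had 0.15 in muscle and 0.018 in eWAT, where liver had 1.24. The difference between tissues was not tested.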

How the data were processed

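Of the 18 libraries of the series, the 6 of liver and 8 of eWAT and muscle are compared here. The authors trimmed reads, aligned them with hisat2 to mm10 and computed FPKM per gene with cuffdiff, per the methods of the study, while the submitters' processing notes also name HTSeq 0.9.1 and mm9. The FPKM as deposited were used, and the annotation release is not given in the sources used here. Fragments were recovered as FPKM times the exonic length of GENCODE M21, and were whole within 0.05 fragments in all libraries for 18346 of 18789 genes above 0 with a length. Of 21899 genes listed, 21807 are protein-coding.

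The share of a library is its fragments on mt- genes over all its recovered fragments, with Wilson intervals at 95% confidence. The rule of classes, the gene lists and the tests were chosen with earlier results of these data known, and the lists of splicing factors, nuclear-held mRNAs and Cyp4a genes were added after the values here were seen. Named genes were members of the lists, mitochondrial genes, genes called or nearest to a call in a fit, and the 10 farthest in each direction among genes without overlap at a mean of 5 FPKM or more, and some of these genes are not reported here. Differences are on the log2(FPKM + 0.5) scale, which understates those of low genes. Tests were limma 3.58.1 (R 4.3.3) with a variance trend and Benjamini-Hochberg adjustment over all genes tested, and an exact permutation test for shares. On simulated data, limma recovered 200, 199, 200 and 200 of 200 changed genes in the fits with class term, of 4 livers, of eWAT and of muscle, with 5, 4, 5 and 3 unchanged genes called. These data had large changes, small independent noise of equal size for every gene, no rescaling and no difference between share classes. They cannot tell how many genes the fits could find in the real libraries, which differ more. Same-numbered CON and HSD livers did not deviate together (correlations −0.45, 0.40 and −0.17), so replicate numbers were not taken as pairs. Other settings were other pseudocounts, filters and scalings, no variance trend, other terms, a replicate block and each library left out. Other computations ran in Python 3.11.15 (numpy 2.4.6; pandas 2.3.3), with scipy 1.17.1 for tests.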

Additional observations from a re-analysis of the deposited data

Results flagged for a closer look

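Markers of red cells and of skeletal muscle differed between share classes in opposite directions in CON and HSD livers. The log2 ratio of the summed red cell markers (rescaled FPKM), high over low share, was −2.57 within CON, where CON16L is the only low-share library, and 1.98 within HSD, where HS5L is the only high-share library. For skeletal muscle markers it was −9.14 within CON and 1.47 within HSD. The sum of skeletal muscle markers was 5007 in CON16L and at most 13.1 in any other liver. The difference between diets was not tested.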

How the results depend on the processing

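Depth was 7628073 fragments or more per liver library, mitochondrial fragments included, but 3 libraries a class limit every comparison. Mitochondrial fragments were 4639360 of 7628073 in CON14L and 1597008 of 10380427 in HS4L. Every high-share library thus had fewer fragments left for other genes than every low-share library. With each liver left out in turn, genes without overlap between classes numbered 4497 to 6336 with rescaled FPKM (4026 with all; 6336 without CON72L) and 4586 to 5825 as deposited. The median difference of all genes was −0.031 after median-ratio scaling and, as deposited, −0.074 with no filter. For diet with the class term (0 DEGs), a pseudocount of 0.1 gave 5, the share in percent as a term 4, and each library left out 1 to 263 (263 without HS5L). With the replicate block, 2 genes were called (1 up, 1 down). For the 4 livers (37 DEGs), counts were 20 with a pseudocount of 0.1, 306 with 1, 0 with no filter (3195 at an unadjusted p under 0.05 by limma), 339 at a mean FPKM of at least 1, 22 with median-ratio scaling (6 up, 16 down), 3 without a variance trend, 134 with rescaled FPKM (19 up, 115 down), and 41 to 3140 with a library left out. For muscle, diet as a second term gave 13 and leaving out a library 0 to 3. The causes were not tested. No paired analysis was possible for the 4 livers because both groups share 1 replicate number, nor for eWAT and muscle because class and number coincide. Of the settings tried for 40 results of single genes, 378 values moved by less than the spread between libraries and 22 by more, and for lists 110 and 46. Of 52 lists with a value, 38 kept the sign of their median under all 3 scalings (11 positive, 27 negative) and 14 did not.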

Other observations

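Some liver gene groups showed little or mixed separation by mitochondrial share. With rescaled FPKM, 3 of 14 pericentral genes were higher in the high-share class and 2 lower (median −0.32), where 29.7% of all genes were higher and 9.37% lower. Cyp2e1, an ethanol-metabolizing cytochrome P450 of cells near the central vein, had 583, 789.7 and 817 against 1143, 2770.0 and 1685 (CON14L, HS5L, CON72L against CON16L, HS2L, HS4L). Of 14 periportal genes 1 was higher (0.061), and of 18 genes of the urea cycle and amino acid breakdown 1 was higher and 1 lower (0.011). Of 13 hypoxia genes 4 were higher and 3 lower (0.14), with Vegfa at 1.16 and Ldha at −1.27. Of 11 genes of the integrated stress response 2 were higher (0.40), and of 11 cytosolic heat shock genes 1 was higher and 2 lower (−0.12). As deposited the medians of the periportal, urea cycle, hypoxia and integrated stress lists were below 0 (−0.59, −0.64, −0.41 and −0.23). Without CON16L, 4 pericentral genes were higher and 4 lower, 1 periportal gene was higher and 3 lower, and 1 urea cycle gene was higher and 5 lower. Of the integrated stress genes 4 were then higher and 1 lower. In that setting 41.4% of all genes were higher and 14.2% lower.

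Genes for the upkeep of mitochondria were mixed. Of 11 mitophagy genes 3 were higher and 3 lower (−0.13), with Ulk1, a kinase that starts autophagy, at 1.50, and Bnip3 and Pink1, a mitophagy receptor and kinase, at −0.99 and −0.81. Of 11 genes of mitochondrial fusion and fission 2 were higher and 2 lower (−0.024), and without CON16L 5 and 2 (0.43). Of 37 Slc25 carriers of the inner membrane 11 were higher and 3 lower (0.33), close to the share and median of all genes, and as deposited 2 were higher and 9 lower (−0.30). Slc25a37, an iron importer, was at 1.35 and Slc25a5, an ADP/ATP carrier, at −1.35. Of 18 histone genes 4 were lower (−0.058).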
